A study of Mus musculus with 6 samples.

Results

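The mitochondrial ribosomal protein genes were examined in brown adipose tissue (BAT) of cold-exposed mice with and without diphtheria toxin-induced loss of regulatory T (Treg) cells. Members were all features whose gene symbol starts with Mrpl or Mrps followed by a digit. This gave 76 of 25206 features, 48 of the large subunit (Mrpl) and 28 of the small subunit (Mrps) by name. None was a pseudogene by its symbol. Membership rests on the symbol alone, but the family was picked with its difference between the groups on these same arrays already known. The values of that comparison are therefore a description, and nothing is tested over the family as a whole. Mrpl27 and Mrps18c were not analysed here.

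All 6 mice were females of a line named FoxP3 DTR B6 in the labels, in which Foxp3 regulatory elements drive the diphtheria toxin receptor, so that toxin kills cells in which these elements are active, in all tissues and not in BAT alone. They lived alone in a cage at 22°C for 1 week and then had an intraperitoneal injection on each of 2 consecutive days. From the first injection on they were housed at 4°C, and BAT was taken 2 days later. The labels were followed for this temperature, which the results of the paper also give, while its methods name a less severe value. Diphtheria toxin (DT) was given to DT 5, DT 9 and DT 16, and phosphate-buffered saline (PBS) to PBS 12, PBS 18 and PBS 20. All mice of both groups carried the receptor and were cold-exposed, and toxin in mice without the receptor was not analysed here. No ages are given in the labels.

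The mitochondrial ribosome makes the few proteins that mitochondrial DNA encodes, all of them core subunits of the respiratory chain and ATP synthase. Its proteins are encoded in the nucleus, made in the cytosol and imported. The small subunit decodes the messenger RNA, and the large subunit forms the peptide bond and feeds the new protein into the inner membrane. Some of its proteins have bacterial counterparts and others are particular to mitochondria. Brown adipocytes are packed with mitochondria, and their heat production depends on a respiratory chain that is partly made on these ribosomes.

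The regions from which the members are transcribed are shown first. Whether they have a part in the differences between DT and PBS mice was not tested. RefSeq promoter windows (GRCm38.p6, 250 bases before to 50 bases after the transcript start) were matched for 67 of the 76 members. In these windows 13 strings of letters were searched on both strands, all of them chosen after the values of the members had been seen, and several of them longer or shorter forms of 1 motif that share matches. CCGGAAG, the core of the ETS family motif bound by GABPA, stood in 24 members (35.8%) against 12.9% of 17492 protein-coding genes, and its longer form CCGGAAGT in 10 (14.9% against 5.69%). The motif of NRF1 (GCGCA, any base, GCGC) stood in 13 (19.4% against 7.17%), its shorter form GCATGCGC in 8 (11.9% against 3.94%) and its core TGCGCA in 21 (31.3% against 11.0%). AAGATGGC, a motif of YY1, stood in 12 (17.9% against 3.57%), and AAGATGGCG in 8 (11.9% against 2.14%). GABPA, NRF1 and YY1 are transcription factors known for nuclear genes of mitochondrial proteins.

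The other 6 strings were found in a like or smaller share of members than of protein-coding genes. CCAAT stood in 27 (40.3% against 42.3%), TATAAA in 5 (7.46% against 14.8%) and the E box CACGTG in 4 (5.97% against 8.91%). Of the sites of estrogen-related receptors, AAGGTCA stood in 4 (5.97% against 4.73%), TNAAGGTCA in 0 (against 1.19%) and TGACCTTNG in 0 (against 1.33%). These shares are descriptions without a test, and a match of letters is not a bound site. At least 1 of CCGGAAG, AAGATGGC and the NRF1 motif was found in 41 members (61.2%), against 21.0% of protein-coding genes. Members with and without CCGGAAG had median log2 differences (DT minus PBS) of -0.17 (24 members) and -0.14 (43), those with and without the NRF1 motif of -0.13 (13) and -0.16 (54), and those with and without AAGATGGC of -0.17 (12) and -0.14 (55). For these 3 motifs the medians with and without lay close together. The gap was wider for some of the other strings, each found in few members. With and without AAGGTCA the medians were -0.23 (4) and -0.14 (63). They were -0.09 (5) and -0.15 (62) for TATAAA, and -0.10 (8) and -0.15 (59) for GCATGCGC.

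Among the matched members, 19 (28.4%) started head to head with another protein-coding gene, with under 500 bases between the starts, against 7.53% of protein-coding genes. In 1 case both genes are members, Mrpl46 of the large and Mrps11 of the small subunit. Mrps12 shares such a region with Sars2, the mitochondrial seryl-tRNA synthetase, Mrps27 with Ptcd2, a pentatricopeptide repeat protein of mitochondrial RNA processing, and Mrpl43 with Twnk, the helicase of mitochondrial DNA replication. These 4 regions are shown because both neighbours of each work on mitochondrial DNA, RNA or translation, together with the 130 bases before the start of Mrpl22 and Mrps6, the members with the largest differences in each subunit among those without overlap between the groups. These regions were chosen after the values were seen. Capitals mark matches to CCGGAAG, AAGATGGC or the NRF1 motif, and every stretch ends or starts at a transcript start. All are 5′ to 3′ on the strand named.
Mrpl46 to Mrps11, chr7:78783090-78783130, plus strand, the 41 bases between the starts: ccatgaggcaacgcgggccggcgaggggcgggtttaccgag
Sars2 to Mrps12, chr7:28741822-28741967, minus strand, 146 bases: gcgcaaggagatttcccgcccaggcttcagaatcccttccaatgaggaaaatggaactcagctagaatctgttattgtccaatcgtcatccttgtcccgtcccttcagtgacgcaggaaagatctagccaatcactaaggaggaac
Twnk to Mrpl43, chr19:45006443-45006557, minus strand, 115 bases: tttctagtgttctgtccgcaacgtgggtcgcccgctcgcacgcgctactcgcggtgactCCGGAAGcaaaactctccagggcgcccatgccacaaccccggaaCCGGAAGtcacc
Ptcd2 to Mrps27, chr13:99344679-99344785, plus strand, 107 bases: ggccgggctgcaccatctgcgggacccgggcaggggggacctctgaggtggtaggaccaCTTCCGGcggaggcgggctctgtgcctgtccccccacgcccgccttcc
Mrpl22, chr11:58171534-58171663, plus strand: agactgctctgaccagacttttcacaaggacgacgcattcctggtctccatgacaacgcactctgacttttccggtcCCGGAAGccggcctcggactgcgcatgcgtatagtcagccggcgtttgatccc
Mrps6, chr16:92058206-92058335, plus strand: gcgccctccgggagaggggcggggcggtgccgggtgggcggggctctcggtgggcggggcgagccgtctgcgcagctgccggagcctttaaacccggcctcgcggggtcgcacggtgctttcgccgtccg
The Twnk to Mrpl43 region holds CCGGAAG at 2 places, that of Mrpl22 holds it once, that of Ptcd2 to Mrps27 holds it once on the other strand (read as CTTCCGG), and the other 3 stretches hold none of the 3 motifs.

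The deposited values are log2 expression estimates with 1 value per gene, which the authors quantile normalized, so that all arrays have nearly the same distribution (median 5.10, range 3.01 to 14.1). The sorted values were identical on 5 arrays, and those of DT 5 differed from them by up to 0.00179. Log2 values of different genes cannot be compared as amounts. BAT markers were strong on all arrays, with Ucp1, the uncoupling protein of brown adipocytes, at 13.98 to 14.01. Foxp3 was below the array median in both groups (4.40 ± 0.10 in DT and 4.56 ± 0.16 in PBS, SD, n = 3; log2 difference -0.16, adjusted p = 0.587), so that Foxp3 on these arrays gives no check of the loss of Treg cells. Differences were tested with limma over all features with Benjamini-Hochberg adjustment, and "called" means an adjusted p under 0.05. Every difference is DT minus PBS. Each array is 1 mouse, and no batch is given in the labels.

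In DT, 74 of the 76 mitochondrial ribosomal protein genes had a lower mean than in PBS, each by a small amount. The median log2 difference was -0.14, a level 9.55% lower, and differences ran from -0.46 to 0.01. The exceptions were Mrpl48 (0.01) and Mrps31 (0.00). None of the 76 was called, against 1.73% of all features (0.444% lower and 1.29% higher). Of the features at or above the median signal, 3.05% were called (0.841% lower and 2.21% higher). The smallest adjusted p was 0.10, for Mrps6. Bulk tissue was measured, so that fewer cells of a type and less RNA per cell cannot be told apart. At an unadjusted p under 0.05, 20 members were lower and 0 higher with limma, where 6.83% of all features were lower and 6.43% higher. For features at or above the median signal these shares were 11.1% and 9.58%. A linear model without moderation called 0 of all 25206 features, members included, with 2986 features and 23 members at an unadjusted p under 0.05.

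In 35 of the 76 members (46.1%) the 3 DT values all lay below the 3 PBS values, and in 0 they lay above. Over all features these shares were 10.1% and 8.51%, and over features at or above the median signal, where 74 of the 76 members lie, 14.6% and 11.4%. Over all features 54.0% had a difference below 0, and 55.8% of those at or above the median signal. The median difference over all features was -0.01. The members were measured on the same 6 arrays, so they are not independent of each other.

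**Figure D1:**
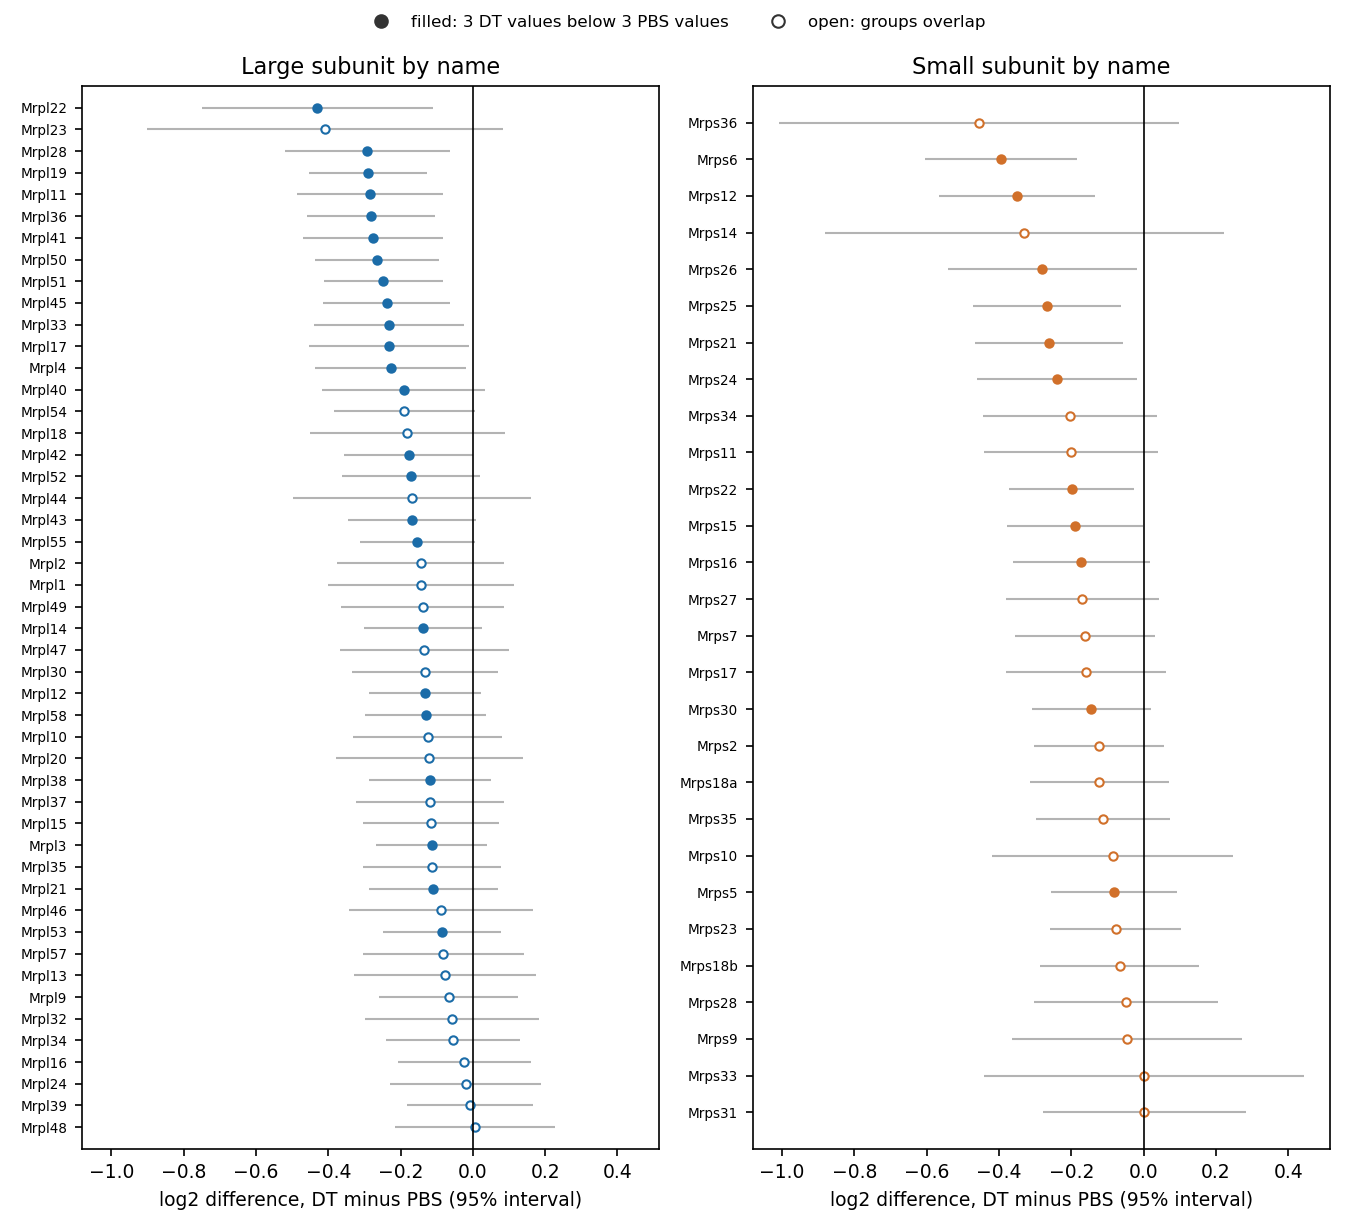
Log2 difference (DT minus PBS) of each of the 48 large and 28 small subunit genes, with the 95% interval of the limma fit; filled points mark genes whose 3 DT values all lie below their 3 PBS values (35 genes), open points genes whose groups overlap. Nearly all points lie left of 0, most between -0.3 and 0, and many intervals include 0.

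The pattern was seen on each array. As the median over members of the deviation from a gene's own mean over 6 arrays (log2 scale), DT 5 lay at -0.09, DT 9 at -0.05 and DT 16 at -0.08, and PBS 12 at 0.12, PBS 18 at 0.04 and PBS 20 at 0.09. The 3 DT arrays lay below the 3 PBS arrays, with DT 9 and PBS 18 nearest to each other. PBS 12 was the highest of the 6 arrays in 41 members, PBS 20 in 25, PBS 18 in 7, and a DT array in 3. DT 5 was the lowest in 31, DT 16 in 25 and DT 9 in 14, with PBS 20 the lowest in 6. Of the 9 possible comparisons of 1 DT with 1 PBS array, all 9 were lower in DT in 35 members, 8 in 13, 7 in 11, 6 in 7, 5 in 9 and 4 in 1.

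**Figure D2:**
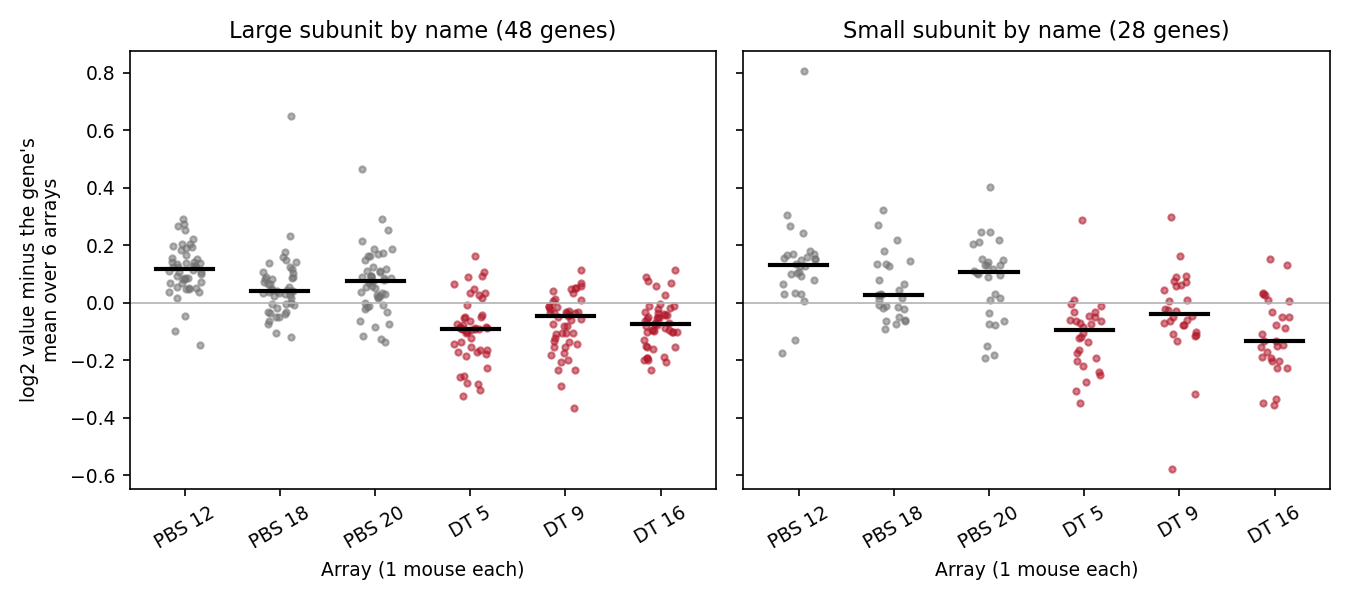
Log2 value of each member minus its mean over the 6 arrays, by array, for the 48 large and 28 small subunit genes; grey points are PBS mice, red points DT mice, and black lines medians. In both panels the medians of the 3 DT arrays lie below 0 and those of the 3 PBS arrays above 0.

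The subunits had similar differences. The median was -0.14 for the large subunit (47 of 48 below 0, 24 without overlap between the groups) and -0.17 for the small subunit (27 of 28 below 0, 11 without overlap). Between arrays of a group, the median deviation of a subunit varied with an SD of 0.03 (large) and 0.05 (small). Both subunits were measured on the same arrays, so these SDs do not give the spread of the gap between the 2 medians. That gap was not tested. Names and structure differ for a few genes. Mrps30 and Mrps18a sit in the large subunit in the solved mammalian ribosome, and Mrps36 is known as a component of the 2-oxoglutarate dehydrogenase complex rather than of the ribosome. With these 3 placed by structure the medians were -0.14 (50 genes) and -0.17 (25 genes). Members with a bacterial counterpart (44 genes, all below 0) had a median of -0.14 and those particular to mitochondria (29 genes, 27 below 0) of -0.17, while 3 genes were not classed.

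In the large subunit, Mrpl22, the counterpart of the bacterial protein that lines the exit tunnel of the new chain, had the largest difference. It was at 7.15, 7.02 and 7.11 in DT 5, DT 9 and DT 16 and at 7.56, 7.24 and 7.78 in PBS 12, PBS 18 and PBS 20, a difference of -0.43 (SE 0.14, adjusted p = 0.228). The groups did not overlap, but its PBS values were uneven, with PBS 18 close to the DT mice, and the difference was between -0.31 and -0.57 when single arrays were left out.

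Mrpl19, the counterpart of bacterial L19, had the smallest adjusted p of the subunit. Its values were 9.24, 9.32 and 9.22 in DT and 9.54, 9.53 and 9.58 in PBS, a difference of -0.29 (SE 0.07, 95% interval -0.45 to -0.13, adjusted p = 0.115). The gap between the groups was wider than the range within either of them.

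Mrpl28 and Mrpl36, both counterparts of bacterial large subunit proteins, differed by a like amount. Mrpl28 was at 7.01, 7.32 and 7.24 in DT and at 7.53, 7.48 and 7.43 in PBS (-0.29, SE 0.10, adjusted p = 0.25). Mrpl36 was at 7.45, 7.47 and 7.53 in DT and at 7.69, 7.85 and 7.75 in PBS (-0.28, SE 0.08, adjusted p = 0.157). DT 5 was the lowest array in both, and neither overlapped.

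The stalk recruits translation factors to the ribosome. Mrpl11, at its base, was at 8.15, 8.06 and 8.17 in DT and at 8.54, 8.41 and 8.29 in PBS (-0.28, SE 0.09, adjusted p = 0.213). Mrpl12, the stalk protein itself, was at 11.66, 11.66 and 11.61 in DT and at 11.76, 11.78 and 11.78 in PBS, a smaller difference of -0.13 (SE 0.07, adjusted p = 0.462) that nevertheless left the groups apart. Mrpl10, which anchors Mrpl12, overlapped between the groups, with 10.40, 10.66 and 10.52 in DT and 10.70, 10.58 and 10.68 in PBS (-0.13, SE 0.09, adjusted p = 0.643). Its difference was -0.06 without DT 5 and -0.19 without DT 9. The intervals of the 3 genes overlapped.

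Mrpl45, which lies near the tunnel exit and faces the inner membrane, was at 8.40, 8.34 and 8.24 in DT and at 8.55, 8.53 and 8.61 in PBS (-0.24, SE 0.07, adjusted p = 0.226). Mrpl58, a peptidyl-tRNA hydrolase that can release chains from stalled ribosomes, was at 10.74, 10.79 and 10.76 in DT and at 10.96, 10.82 and 10.91 in PBS (-0.13, SE 0.07, adjusted p = 0.515). Both were without overlap. Mrpl44, which has an RNase III-like fold, overlapped, with DT 5 (7.59) above PBS 12 (7.32) and PBS 18 (7.49), and a difference of -0.17 (SE 0.14, adjusted p = 0.707). Its size rested on single arrays, with -0.29 when DT 5 and -0.26 when PBS 12 was left out, and -0.09 when DT 16 and -0.07 when PBS 20 was left out.

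In the small subunit, Mrps6, the counterpart of bacterial S6, came nearest to the threshold in the family. It was at 9.21, 9.21 and 8.98 in DT and at 9.46, 9.55 and 9.58 in PBS, a difference of -0.39 (SE 0.09, 95% interval -0.60 to -0.18, 1.31-fold lower in DT, adjusted p = 0.10). DT 16 was the lowest array, and all DT values lay at least 0.2 below the PBS values. When limma's prior variance followed the signal and was made robust, Mrps6 was the only one of the 76 members called (adjusted p = 0.0307). That setting called 659 of 25206 features, against 436 in the main fit.

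Mrps12, the counterpart of the bacterial protein at the decoding centre, was at 6.85, 7.05 and 6.96 in DT and at 7.44, 7.21 and 7.27 in PBS (-0.35, SE 0.09, adjusted p = 0.148). Its head-to-head neighbour Sars2 differed by -0.29 (SE 0.09, adjusted p = 0.208), again without overlap. Twnk differed by -0.19 (SE 0.14) beside Mrpl43 at -0.17 (SE 0.08), Ptcd2 by -0.10 (SE 0.08) beside Mrps27 at -0.17 (SE 0.09), and Mrpl46 by -0.09 (SE 0.11) beside Mrps11 at -0.20 (SE 0.10). Of these 6 genes Mrpl43 alone was without overlap. The neighbour with the largest difference was Zfp189, a zinc finger gene, at -0.91 (SE 0.21, adjusted p = 0.103) beside Mrpl50 at -0.27 (SE 0.07), both without overlap. Over the 17 neighbours outside the family, 12 had a difference below 0, with a median of -0.05, and 0 were called.

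Mrps25 and Mrps26 are particular to mitochondria, and Mrps21 has a bacterial counterpart. Mrps26 was at 7.99, 7.94 and 7.64 in DT and at 8.03, 8.17 and 8.21 in PBS (-0.28, SE 0.11, adjusted p = 0.339), with DT 5 and PBS 12 nearly equal, and the difference was -0.17 without DT 16. Mrps25 was at 8.16, 8.35 and 8.32 in DT and at 8.56, 8.44 and 8.63 in PBS (-0.27, SE 0.09, adjusted p = 0.245). Mrps21 was at 11.20, 11.17 and 11.07 in DT and at 11.28, 11.42 and 11.52 in PBS (-0.26, SE 0.09, adjusted p = 0.254). In all 3 the groups stood apart, by the least in Mrps26.

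**Figure D3:**
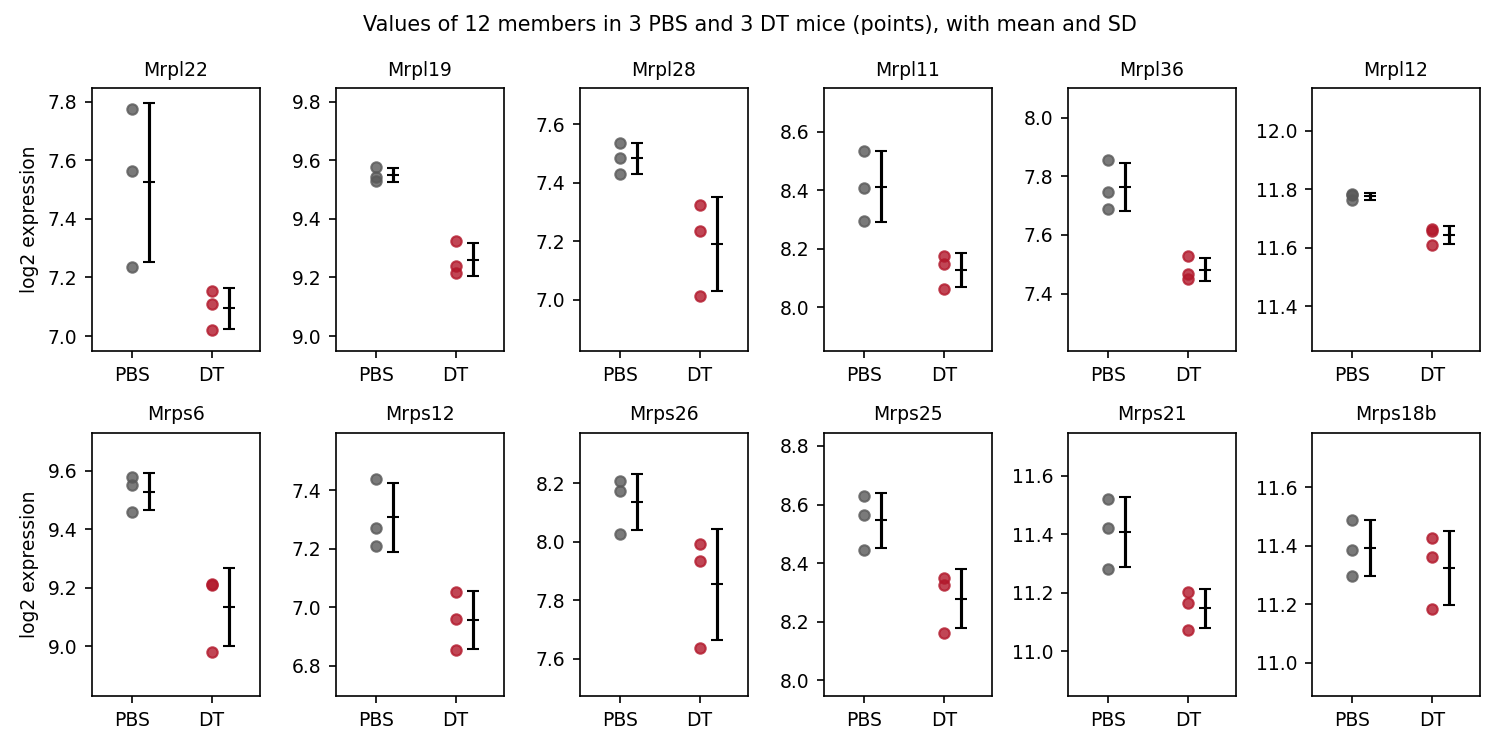
Log2 expression of 12 members, chosen after values were seen (the 5 largest differences without overlap per subunit, Mrpl12 and Mrps18b), in the 3 PBS (grey) and 3 DT (red) mice, with mean and SD beside the points; each panel spans the same number of log2 units around its own centre. Mrpl19 and Mrps6 are clearly separated, and Mrps18b overlaps.

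Among members chosen by role, Mrps22, which is particular to mitochondria, was at 8.66 ± 0.06 in DT and 8.86 ± 0.06 in PBS (SD, n = 3; -0.20, adjusted p = 0.297) without overlap. Mrps7, the counterpart of a bacterial protein that organizes the head of the small subunit, was at 9.75 ± 0.07 and 9.91 ± 0.10 (-0.16, adjusted p = 0.472), and Mrps27, an RNA-binding pentatricopeptide repeat protein, at 8.29 ± 0.13 and 8.46 ± 0.06 (-0.17, adjusted p = 0.499). Both overlapped, and the difference of Mrps27 was -0.10 without DT 5. Mammals carry 3 paralogs of bacterial S18, of which those measured had small differences: Mrps18a, at 9.86 ± 0.04 in DT and 9.99 ± 0.11 in PBS (-0.12, 95% interval -0.31 to 0.07), and Mrps18b, at 11.32 ± 0.13 and 11.39 ± 0.10 (-0.07, 95% interval -0.29 to 0.15). Mrps18a was at -0.08 without PBS 12 and at -0.19 without PBS 18. Mrps18b was at 0.00 when DT 5 and -0.02 when PBS 20 was left out, and at -0.12 when DT 9 and -0.11 when PBS 18 was left out. Mrps30 was at 8.50 ± 0.03 and 8.65 ± 0.06 (-0.15, adjusted p = 0.447), without overlap.

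Of the members with the widest intervals, Mrps36 and Mrpl23 lay below the median signal and Mrps14 close to it. Mrps33 (SE 0.19) was at the 73.0th percentile. Mrps36 had the largest difference of all (-0.46, SE 0.24), but PBS 12 at 5.59 stood above the other 5 arrays (4.45 to 4.76), and the difference was -0.17 without it (adjusted p = 0.482 with all arrays). Mrpl23 (-0.41, SE 0.21) was at the 29.1st percentile of mean signal and Mrps14 (-0.33, SE 0.24) at the 50.7th. At the other end, Mrpl39 (-0.01, 95% interval -0.18 to 0.17), Mrpl24 (-0.02, -0.23 to 0.19) and Mrpl16 (-0.02, -0.21 to 0.16), all strong signals, had intervals that reach beyond the family's median, so that they are not shown to differ from it.

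The rest of the mitochondrial translation machinery was described through lists made from known function. Mitoribosome proteins with other names (4 genes) had a median of -0.09, with Chchd1 at -0.29 (adjusted p = 0.263) and Dap3 at -0.16 (adjusted p = 0.523). Of 19 translation factors and messenger RNA or tRNA handling genes, 18 were below 0 (median -0.08) and 0 were called. The largest difference was that of Mtif3, the initiation factor that prepares the small subunit, at 7.21, 7.02 and 7.12 in DT and 7.70, 7.48 and 7.53 in PBS (-0.46, SE 0.09, adjusted p = 0.0666), with the groups apart. Mtfmt, which formylates the initiator methionine, differed by -0.28 (adjusted p = 0.287).

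Of 21 genes of mitochondrial aminoacyl-tRNA synthesis (including Kars and Gars, which also serve the cytosol) 19 were below 0 (median -0.13, 0 called), with Sars2 (-0.29) and Gatb (-0.21, adjusted p = 0.268), a subunit of the amidotransferase that makes glutaminyl-tRNA, having the smallest p. Of 25 genes of ribosome assembly and rRNA modification 19 were below 0 (median -0.12, 0 called). Gtpbp10, a GTPase of large subunit assembly, differed in the other direction, at 9.22, 9.28 and 9.08 in DT and 9.004, 8.943 and 8.867 in PBS (0.25, SE 0.08, adjusted p = 0.242), and Rbfa, a small subunit assembly factor, by -0.21 (SE 0.07, adjusted p = 0.264). Of 13 genes of mitochondrial DNA maintenance and transcription 10 were below 0 (median -0.11, 0 called), with Tfam, the factor that packages mitochondrial DNA, at -0.22 (adjusted p = 0.389) and the elongation factor Tefm at -0.14 (adjusted p = 0.541).

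The 11 regulators of mitochondrial biogenesis did not share that direction, with 3 below 0 and a median of 0.07. Myc rose, from 6.34, 6.02 and 6.17 in PBS 12, PBS 18 and PBS 20 to 7.50, 7.98 and 8.25 in DT 5, DT 9 and DT 16, a difference of 1.74 (SE 0.19, adjusted p = 0.00839), and was the only gene called in these lists. Ppargc1a, the coactivator of the thermogenic and mitochondrial programs, was at 12.01, 12.10 and 12.37 in DT and 11.47, 12.05 and 11.86 in PBS (0.37, SE 0.16, adjusted p = 0.396), overlapping. Nrf1, whose motif is described above, differed by -0.17 (SE 0.08, adjusted p = 0.421). Genes that report on mitochondrial mass (8 genes, 7 below 0, 0 called) had a median of -0.05, with citrate synthase (Cs) at -0.05 cytochrome c (Cycs) at -0.32 (adjusted p = 0.355) and the adenine nucleotide carrier Slc25a4 at -0.11 (adjusted p = 0.596).

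Families taken by symbol after the values were seen gave medians of -0.08 for 33 complex I subunits (28 below 0), -0.06 for 14 cytochrome c oxidase subunits (10 below 0), -0.07 for 24 import proteins (19 below 0), -0.01 for 45 inner membrane carriers (24 below 0, 1 called higher and 1 lower) and -0.03 for 60 cytosolic ribosomal proteins (36 below 0). The difference of these families from the mitochondrial ribosomal proteins was not tested. For the cytosolic ribosomal proteins the range was wider, from -0.53 to 0.81. The families also differ in signal, which limits such a comparison. At or above the median signal lay 30 of the 60 cytosolic ribosomal proteins and 34 of the 45 carriers, against 74 of the 76 members. For complex I this held for 32 of 33, for cytochrome c oxidase for 12 of 14 and for import proteins for 21 of 24.

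Markers of other cells moved with the groups. The summed linear signal of 16 macrophage markers was 7294 to 7705 in DT and 2745 to 3464 in PBS (14 above 0, 6 called higher), that of 7 fibroblast markers 8267 to 9129 and 5045 to 6948 (7 above 0, 4 called higher) and that of 17 proliferation markers 2858 to 2962 and 1760 to 2044 (16 above 0, 10 called higher). Of 6 monocyte markers, summed at 922 to 1056 in DT and 630 to 850 in PBS, 2 were called higher, Plac8 and Ms4a4c. Both lay below the median signal, as did Chil3, which was not called. The part of macrophage, fibroblast, proliferation and monocyte markers in the differences of the ribosomal protein genes was not tested. The 13 brown adipocyte markers summed to 92008 to 95959 in DT and 90260 to 92683 in PBS, with overlapping groups, 7 below 0, a median of -0.01 and 0 called. This sum rests mostly on the strongest genes, such as Ucp1, near the top of the scale (highest value on any array 14.1). It says little about the weaker markers. Among these, Dio2 was higher in DT (0.40, SE 0.14, adjusted p = 0.278) and Prdm16 lower (-0.26, SE 0.10, adjusted p = 0.299), both without overlap.

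The remaining lists differed less or gave weak signals. The 6 endothelial markers summed to 12170 to 12622 in DT and 12219 to 12842 in PBS. The 9 skeletal muscle markers varied between mice and not with the groups, at 7634, 8639 and 1156 in DT 5, DT 9 and DT 16 and 2801, 7358 and 3645 in PBS 12, PBS 18 and PBS 20. The 6 white adipocyte markers summed to 5117 to 8987 and 3681 to 6981 (1 called higher). All 10 T cell and all 7 neutrophil markers, 3 of 4 B cell markers and 4 of 6 NK cell markers lay below the median signal, with 0 called in these lists. The NK cell sum was 181 to 229 in DT and 164 to 178 in PBS, without overlap. The sums of T cell markers (219 to 258 and 224 to 231), B cell markers (76.0 to 98.8 and 89.4 to 110) and neutrophil markers (112 to 129 and 110 to 122) overlapped.

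**Figure D4:**
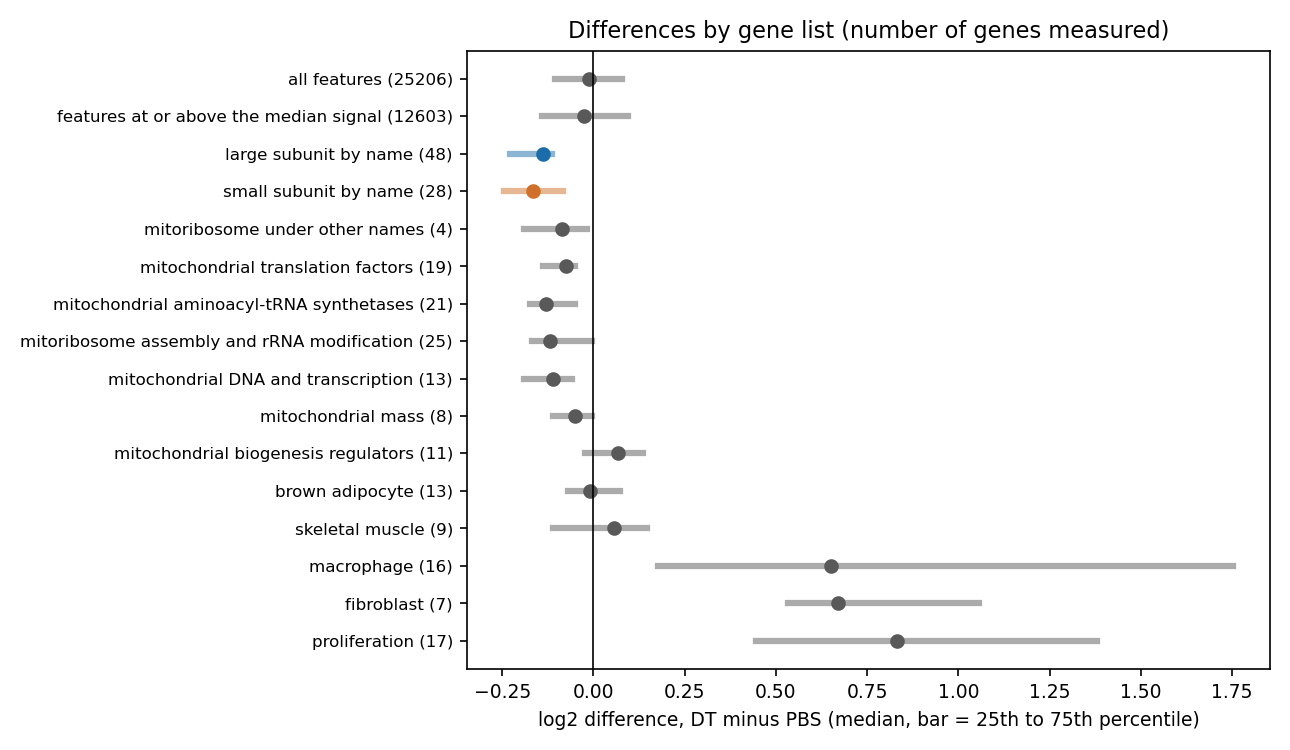
Median log2 difference (DT minus PBS, points) and the range from the 25th to the 75th percentile (bars) of the 2 subunits, the other mitochondrial lists, cell type markers and all features, with the number of genes measured in brackets. Both subunits lie left of all features, at -0.14 and -0.17 against -0.01, and macrophage, fibroblast and proliferation markers lie to the right.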

How the data were processed

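BAT RNA was measured on Affymetrix arrays. The authors deposited log2 values, with 1 estimate for each Entrez gene, made with a custom chip definition file (RMA per the submitters' processing notes, quantile normalization per the methods). Which array design was used was not checked, and no genome build or aligner applies to these values. A shift common to all genes is removed by this normalization, and differences of weak genes can be compressed. Arrays have no read depth, and the number of mice (n = 3 per group) limits the precision.

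Of 25206 features 23185 had 1 symbol and 2021 none. Symbols were checked by Entrez number against RefSeq. DT was compared with PBS with limma 3.58.1 (lmFit and eBayes, R 4.3.3), 2-sided, adjusted over all features. SE and 95% intervals are those of the fit. The mixed-model variance analysis of the methods was not repeated. The fit was tested on simulated data.

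The members, gene lists and rules were chosen with earlier results of these data known. Named were called members, per subunit the 5 largest differences in each direction among genes without overlap (none was higher in DT), and 15 members chosen by role (Mrps18c was not analysed here); from other mitochondrial lists, called genes or the 2 smallest p. Members with weak signals or near 0, the families by symbol, the 13 motif strings, the head-to-head neighbours and a few listed genes outside these rules (Cs, Nrf1, Ppargc1a, Dio2, Prdm16) were added after values were seen. Alternatives were other normalizations, signal filters, variance models, thresholds, memberships and leaving out each array. No pair of arrays was a duplicate (median absolute log2 difference 0.114 to 0.154 per pair).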

Additional observations from a re-analysis of the deposited data

How the results depend on the processing

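No paired analysis was possible because the groups share no animal number. Over all alternatives run, the median difference kept its sign, between -0.16 and -0.12 for the large and between -0.20 and -0.14 for the small subunit, with the lowest values of both without PBS 18. With arrays left out, 69 to 76 of 76 members had a difference below 0 and 0 were called. The number of members called was 0 in all settings but the intensity trend with a robust prior, where it was 1 in all and 1 in the small subunit (Mrps6, whose adjusted p ranged from 0.0307 to 0.273). Of the translation machinery outside the family, 1 gene was called at an adjusted p under 0.1 and 1 with features below the median signal left out, in both cases Mtif3 (0.046 in the latter, where fewer features were tested). The count over all features, 436, was 736 at an adjusted p under 0.1, 659 with the intensity trend, 0 without moderation, and 135 to 374 with 1 array left out (135 without DT 9, 137 without DT 16, 147 without PBS 12, 140 without PBS 20); the cause was not tested. Of the 22 named members, Mrps18b alone changed sign, to 0.00391 without DT 5. Under cyclic loess 72 members were below 0, with a median of -0.13, where 50.5% of all features were. Differences of weak genes such as Mrpl23 and Mrps36 are limited by their signal.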
